A study of Macaca mulatta with 17 samples.

Results

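Imprinted genes are expressed mainly or only from 1 parental chromosome, under the control of DNA methylation marks that in many cases are set in the germ line. Many of them act on fetal growth, and as a general pattern paternally expressed genes promote growth while maternally expressed genes restrain it. Their mRNA levels are known to be high in fetal tissues and to decline as organs mature and growth slows. The levels of a set of imprinted growth regulators were examined in the uterus of female rhesus macaque fetuses at gestational day (GD) 100 and at full term. The set lists DLK1, CDKN1C, PEG3, PEG10, MEST, PLAGL1, GRB10, NNAT, NDN and MAGEL2. A gene was measured by a probe whose description on the array names its symbol, and 8 of the 10 genes had 1 such probe, out of 16467 gene names on the array. CDKN1C and GRB10, which are known as maternally expressed in at least some tissues, had none and were not analysed here. The 8 genes that were measured are all known as paternally expressed.

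RNA from 17 individual fetal uteri was hybridized to 1 single-color array each. GD100 fetuses were delivered by caesarean section after their dams received a daily fruit treat from GD50, and the GD165 fetuses were born vaginally at GD165 to 168 after treatment from GD100. The treat contained 400 µg/kg/day deuterated bisphenol A (BPA) for the GD100 BPA (n = 5) and GD165 BPA (n = 3) groups, or ethanol vehicle for the GD100 control (n = 5) and GD165 control (n = 4) groups. Each array held RNA from the frozen side of a uterus cut sagittally from fundus to cervix, so muscle, stroma and epithelium were measured together, stillborn fetuses were excluded, and fewer cells of a type cannot be told apart from less RNA per cell. Age, mode of delivery and dosing window changed together and cannot be told apart in the comparisons of GD165 with GD100.

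The probes that the results turn on are identified here by the first 30 of their 60 bases, 5′ to 3′ as the array annotation gives them, all in lower case because no stretch within them was singled out. They are shown for the 4 genes with lower signal at GD165 and for DLK1.
MEST: tacagacaggaaagttccagaaactttaag
NNAT: tcactgatcttgcttttccctggtctcacg
MAGEL2: tggggggacatttttgtttctggtgtttgt
NDN: ggggtgggaaaaatcgctactcatgattac
DLK1: ttgtgttgctgtgtgacaagcgcaatgcta

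Levels are log2 signals with the 75th percentiles of the arrays brought together at 12.62. They compare arrays for 1 probe and do not rank genes against each other. All 8 probes were well above background and none was saturated on any of the 17 arrays. On each array 83.8 to 89.0% of its spots reached that mark, and precision is limited by how many arrays each group has. As a check of the tissue label, HOXA10, HOXA11, ESR1, EMX2, AMHR2 and WT1, 6 of 8 markers of uterine mesenchyme, were well above background on every array, as were all 8 smooth muscle markers. PGR was well above background on no array of any group, and HAND2 on 2 GD100 control arrays, 1 GD100 BPA array, 1 GD165 control array and 0 GD165 BPA arrays. Skeletal muscle markers stood high on GD165 control replicate 5 and GD165 BPA replicate 5, with log2 summed signals of 17.04 and 15.88 against 11.19 to 14.07 on the other arrays. GD165 control replicate 6 was highest in nerve and Schwann markers, at 16.18 against 14.18 to 15.60 on the other arrays, and in the 2 adipocyte markers measured, at 15.68 against 13.36 to 14.52.

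The first question was how the imprinted genes differed between GD100 and GD165 in control fetuses. MEST and MAGEL2 were lower at GD165 and passed the test, a Benjamini-Hochberg adjusted p under 0.01 in limma over all 20217 probes. NNAT and NDN were also lower, with adjusted p values just above that threshold. DLK1 was the only one of the 8 with a higher mean at GD165, and PEG3, PEG10 and PLAGL1 did not pass. The 2 genes called of 8 compare with 11.5% of all probes called in this comparison, and both were lower, as were 5.2% of all probes. The median log2 fold change of the 8 was -0.39, against 0.00460 over all probes.

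MEST encodes a protein of the alpha/beta hydrolase family and is a classic mesodermal imprinted gene. Its levels in the 5 GD100 controls were 15.57, 15.70, 15.73, 15.45 and 15.38, and in the 4 GD165 controls they were 14.43, 14.39, 14.50 and 14.29. The groups were separated by a wide gap relative to the spread within either of them. The level fell from 15.56 ± 0.15 (SD, n = 5) to 14.40 ± 0.09 (n = 4), a log2 fold change of -1.16 (SE 0.105) or 2.23-fold, with an adjusted p of 8.84e-06 in limma. In the separate BPA-exposed fetuses MEST was again lower at GD165. The 5 GD100 BPA arrays gave 15.46, 15.67, 15.82, 15.73 and 15.53 and the 3 GD165 BPA arrays gave 14.81, 14.40 and 14.67, which did not overlap. The log2 fold change there was -1.01 (SE 0.115, 2.02-fold, limma adjusted p of 7.92e-05). MEST was the only one of the 8 genes that passed the test in both age comparisons under every alternative processing tried and with each animal left out in turn.

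NNAT encodes neuronatin, a small membrane proteolipid known from developing brain and endocrine tissue. It read 13.72, 13.36, 13.99, 13.30 and 13.71 in GD100 controls and 12.69, 12.99, 12.24 and 13.16 in GD165 controls. The highest GD165 control was below the lowest GD100 control, but NNAT varied more among fetuses of a group than MEST, with an SD of 0.40 against 0.09 in the GD165 controls. The log2 fold change was -0.84 (SE 0.223), and its adjusted p of 0.0138 in limma did not pass. In BPA-exposed fetuses NNAT fell from a tight group at GD100, with levels of 13.94, 13.93, 14.11, 13.91 and 13.93, to 12.11, 13.04 and 13.26 at GD165. Here the log2 fold change of -1.16 (SE 0.243, 2.24-fold) passed with an adjusted p of 0.00403. Without GD100 BPA replicate 3 the adjusted p was 0.0105, and without GD165 BPA replicate 3, the lowest array, NNAT differed by -0.81 (adjusted p of 0.0206).

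MAGEL2 and NDN lie near each other in the imprinted Prader-Willi region and encode proteins of the MAGE family. MAGEL2 is known as a partner of ubiquitin ligases in protein recycling, and NDN, or necdin, as a growth suppressor of differentiating neurons. MAGEL2 levels were 13.13, 12.87, 13.04, 13.19 and 12.66 in GD100 controls and 12.42, 12.57, 12.14 and 12.19 in GD165 controls. They fell without overlap, by 0.65 on the log2 scale (SE 0.127, 1.57-fold, limma adjusted p of 0.00208). The BPA-exposed fetuses gave 13.05, 12.88, 13.27, 12.97 and 12.84 at GD100 and 12.38, 12.24 and 12.49 at GD165. This was again a separation without overlap, with a log2 fold change of -0.63 (SE 0.138, adjusted p of 0.00529). The call in the BPA-exposed fetuses was lost when GD100 BPA replicate 1, 3 or 4 or any of the 3 GD165 BPA arrays was left out, with adjusted p up to 0.0324.

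NDN gave a dim signal in all groups. It was 8.03, 8.26, 8.21, 8.21 and 8.16 in GD100 controls and 8.04, 7.69, 7.62 and 7.79 in GD165 controls, where replicate 1 overlapped the GD100 range. NDN differed by -0.39 on the log2 scale (SE 0.100), which did not pass in limma (adjusted p of 0.0117). In BPA-exposed fetuses the levels were 8.20, 8.14, 7.97, 8.15 and 8.41 at GD100 and 7.97, 7.79 and 7.75 at GD165. The groups were separated only narrowly, and the log2 fold change of -0.34 (SE 0.109) had an adjusted p of 0.0397. The NDN difference amounted to 1.31-fold in controls and 1.26-fold in BPA-exposed fetuses.

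**Figure D1:**
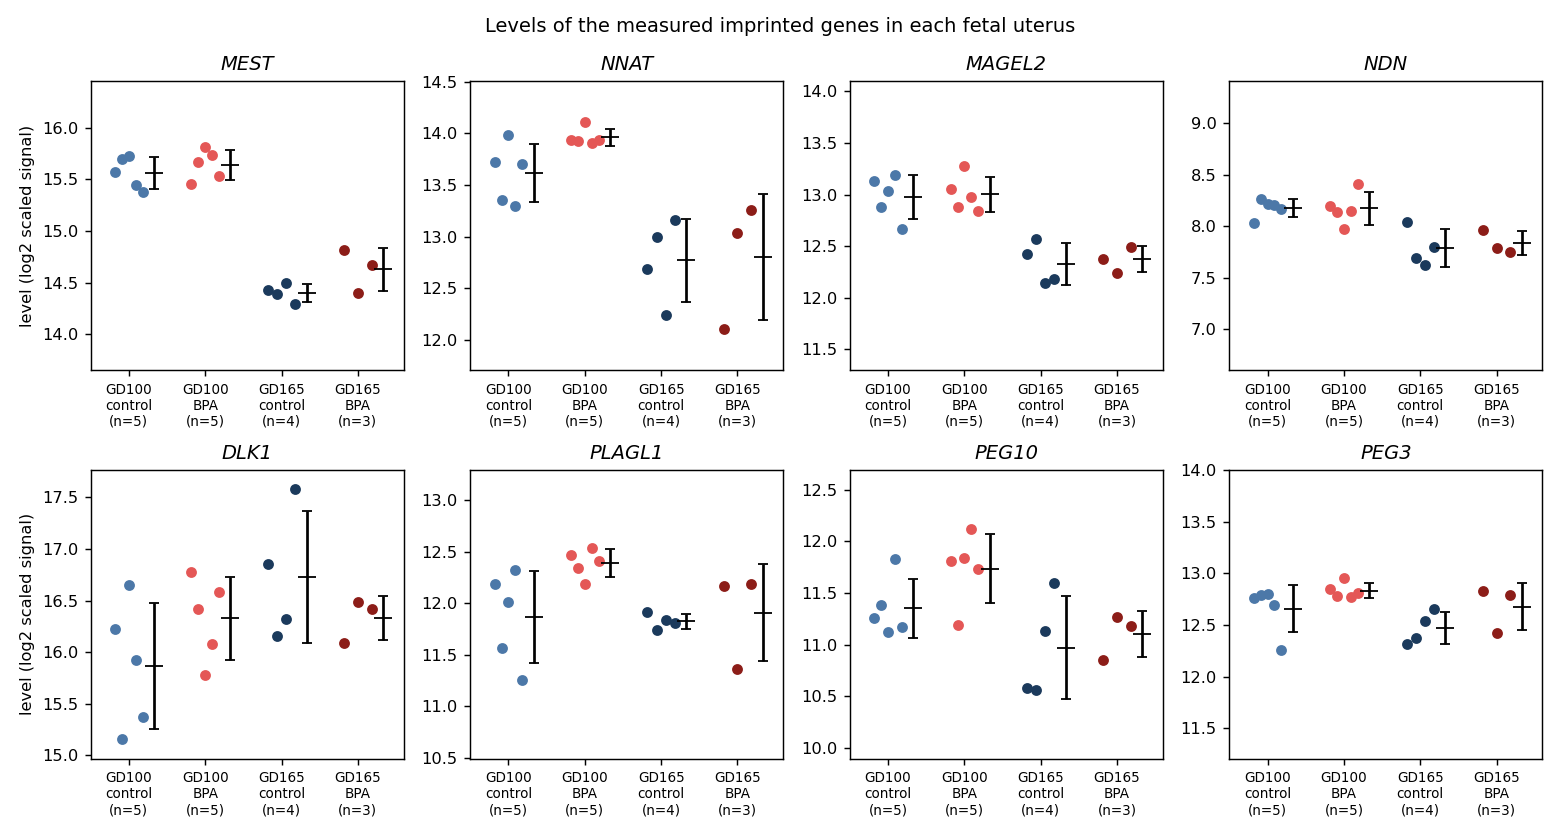
Level of each of the 8 genes on each array, on the y axis as log2 scaled signal, by group on the x axis. Each point is 1 fetal uterus, the bar beside it is the group mean with its SD, and every panel spans the same range of log2 units; MEST, NNAT and MAGEL2 in both age comparisons show GD165 points below all GD100 points of the same treatment.

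DLK1 encodes a transmembrane and secreted protein related to the Notch ligands that is known to restrain adipocyte and muscle cell differentiation. It varied most among fetuses, with an SD within groups of 0.515 that was larger than for 84.2% of all probes. Levels were 16.23, 15.16, 16.65, 15.93 and 15.37 in GD100 controls and 16.86, 16.16, 16.33 and 17.58 in GD165 controls. The group ranges overlapped, and the log2 fold change of 0.86 (SE 0.325, 95% interval 0.167 to 1.55) had an adjusted p of 0.0738 in limma. The highest level, 17.58, was that of replicate 6, the array high in nerve and adipocyte markers. That array was also highest, by smaller margins, in erythroid (20.26) and endothelial (17.03) markers. Without replicate 6 the log2 fold change was 0.58 (limma adjusted p of 0.253). The part of those markers in the DLK1 level was not tested. In BPA-exposed fetuses the GD100 levels were 16.78, 16.42, 15.78, 16.07 and 16.59 and the GD165 levels were 16.08, 16.48 and 16.42. Their means were 16.33 at both ages, with a 95% interval of the log2 difference from -0.75 to 0.756. The difference between the 2 age effects was -0.86 (SE 0.481), and it did not pass the test of the interaction in limma (adjusted p of 0.701).

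PLAGL1 encodes a zinc finger transcription factor that can arrest the cell cycle and is known to regulate other imprinted genes. It was 12.19, 11.56, 12.01, 12.33 and 11.26 in GD100 controls and lay close together at 11.91, 11.74, 11.84 and 11.81 in GD165 controls. The GD165 levels fell inside the GD100 range, with a log2 fold change of -0.04 (SE 0.205). In BPA-exposed fetuses PLAGL1 was 12.47, 12.35, 12.19, 12.53 and 12.41 at GD100 and 12.17, 11.36 and 12.19 at GD165. Replicate 4 was lower than the other two GD165 arrays, and the log2 fold change of -0.48 (SE 0.224) did not pass in limma (adjusted p of 0.14). Without replicate 4 it was -0.21 (adjusted p of 0.575).

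PEG10, derived from a retrotransposon and known for its role in the placenta, was 11.25, 11.39, 11.12, 11.83 and 11.17 in GD100 controls and 10.58, 10.56, 11.14 and 11.60 in GD165 controls. Replicates 5 and 6 of the GD165 controls reached the GD100 range, and the log2 fold change was -0.38 (SE 0.226, limma adjusted p of 0.266). In BPA-exposed fetuses it was 11.81, 11.19, 11.84, 12.12 and 11.73 at GD100 and 10.85, 11.27 and 11.18 at GD165, with a log2 fold change of -0.64 (SE 0.246, adjusted p of 0.0789). PEG3 encodes a zinc finger protein, and its differences with age were small and did not pass. Its group means were 12.66 ± 0.23 and 12.47 ± 0.16 in GD100 and GD165 controls and 12.83 ± 0.07 and 12.68 ± 0.23 in the BPA groups. The log2 fold changes of PEG3 were -0.19 in controls (95% interval -0.45 to 0.0671) and -0.16 in BPA-exposed fetuses (-0.44 to 0.125).

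Across the 8 genes the BPA-exposed fetuses gave 3 calls, all lower at GD165, for MEST, NNAT and MAGEL2. This compares with 9.68% of all probes called in that comparison and 4.86% called lower. The 2 age comparisons share no arrays. MEST and MAGEL2 were called lower in both, as were 3.08% of all probes, and 7 of the 8 genes had negative log2 fold changes in both, the exception being DLK1. The share of all probes negative in both was not counted, and PEG3, PEG10, PLAGL1 and NDN passed in neither. PEG3 in BPA-exposed fetuses turned positive, at 0.03, without scaling between arrays, and at 0.05 with slide as a fixed block. PLAGL1 in controls turned positive with slide as a fixed block (0.06) and without GD100 control replicate 1 (0.04) or 4 (0.07). The groups did not overlap for 3 genes in controls (MEST, NNAT and MAGEL2; 19.4% of all probes, 9.9% lower) and for 4 in BPA-exposed fetuses (these and NDN; 27.2% of all probes, 15.4% lower). The 3 genes that were lower without overlap in both comparisons stand beside 5.9% of all probes that did the same.

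The arrays lay on 6 slides, which the groups shared in part. With slide as a fixed block only MEST was called in each age comparison, and MAGEL2 had a log2 fold change of -0.44 (adjusted p of 0.0170) in controls and -0.49 (0.0227) in BPA-exposed fetuses. NNAT in BPA-exposed fetuses was -0.95 with an adjusted p of 0.0731 in that fit. Within slides, control fetuses of both ages could be compared on 2 slides, each with 1 array of each age. There the larger and the smaller difference were -1.34 and -0.95 for MEST, -1.02 and -0.99 for NNAT, -0.46 and -0.25 for MAGEL2 and -0.53 and -0.13 for NDN. BPA-exposed fetuses of both ages shared 1 slide, again with 1 array of each age. The differences on it were -0.86 for MEST, -0.68 for NNAT, -0.34 for MAGEL2 and -0.66 for NDN. DLK1 differed by -0.49 on one slide and by 1.48 on the other in controls.

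**Figure D2:**
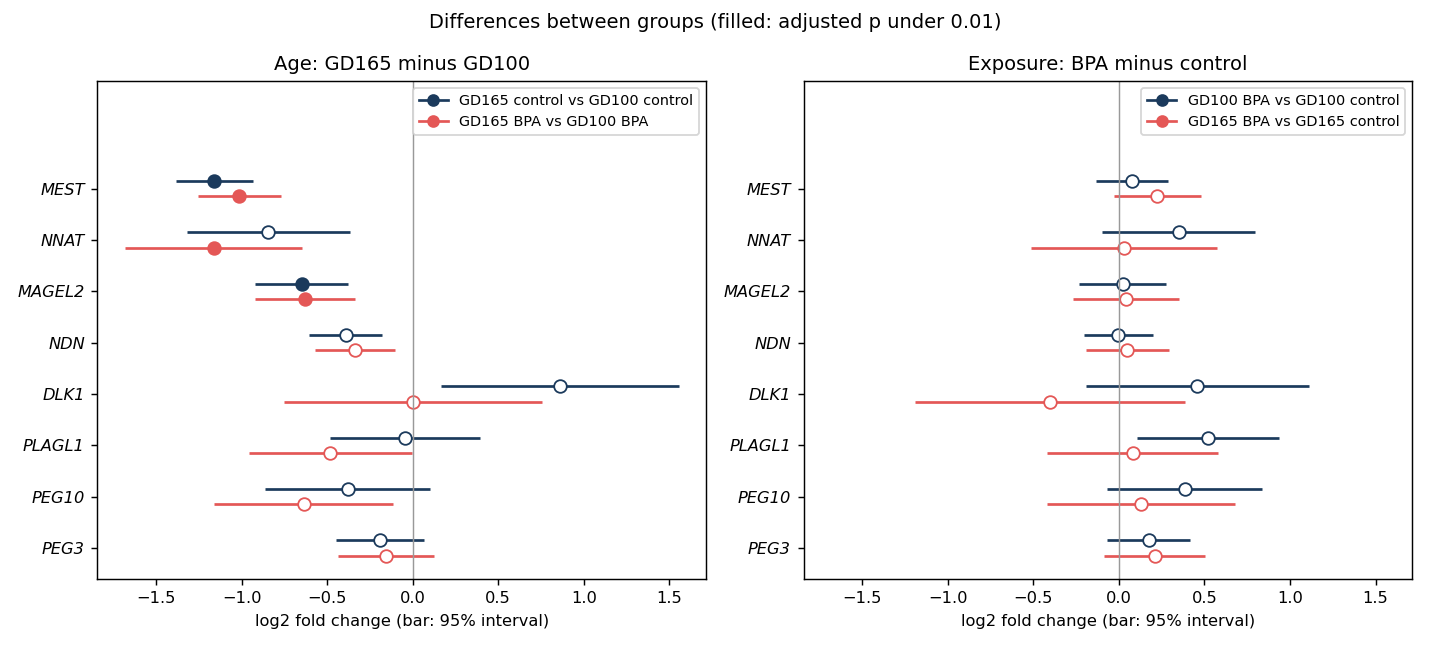
Log2 fold changes of the 8 genes on the x axis with 95% intervals, GD165 minus GD100 on the left and BPA minus control on the right. Filled points passed an adjusted p under 0.01; they are MEST and MAGEL2 in both age comparisons and NNAT in the BPA-exposed fetuses, and no point is filled for BPA against control.

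The second question was whether BPA exposure changed these genes at either age. No imprinted gene (0 of 8) passed the test at GD100 or at GD165, and neither did any probe on the array (0% of 20217). The study, with an error-weighted test that was not run here, reported minimal differences at GD100 and significant differences at GD165, some checked by RT-PCR. At an unadjusted p under 0.05 limma gave 767 probes at GD100 (3.79%) and 1740 at GD165 (8.61%), among them 1 of the 8 genes at GD100 and 0 at GD165. The groups overlapped for all 8 genes at both ages, beside 0.782% of all probes without overlap at GD100 and 7.31% at GD165. 

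At GD100 the largest difference was in PLAGL1, with a mean of 12.39 ± 0.13 in BPA-exposed fetuses and 11.87 ± 0.45 in controls. The GD100 BPA levels were close together, with 4 of 5 above the highest control at 12.33 and replicate 3 inside the control range at 12.19, and the log2 fold change was 0.52 (SE 0.194, 95% interval 0.107 to 0.932). The unadjusted p in limma was 0.0169, and it did not pass after adjustment. NNAT and PEG10 had log2 fold changes of 0.35 (-0.10 to 0.797) and 0.39 (-0.07 to 0.839) at GD100, and DLK1 had 0.46 (-0.19 to 1.11). In total 7 of the 8 genes had higher means in the BPA group at GD100, with a median log2 fold change of 0.26 against 0.0109 over all probes. The intervals of MEST (-0.13 to 0.289), MAGEL2 (-0.23 to 0.277) and NDN (-0.21 to 0.198) were the narrowest, together with that of PEG3 (-0.07 to 0.417).

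At GD165, where 3 exposed fetuses were measured, the log2 fold changes ran from -0.40 for DLK1 (95% interval -1.19 to 0.389) to 0.23 for MEST (-0.03 to 0.481). MEST was 14.81, 14.40 and 14.67 with BPA against 14.29 to 14.50 without. Replicate 4 was inside the control range and the other two were above it. The adjusted p for MEST in limma was 0.625. Without GD165 BPA replicate 3 the difference in MEST was 0.13, and without GD165 control replicate 6 that in DLK1 was -0.12. The intervals of NNAT (-0.51 to 0.573) and PEG10 (-0.42 to 0.677) allow differences of either sign. The test of whether the BPA effects differed between the 2 ages was passed by none of the 8 genes and by no probe (0% called, with 1584 probes, 7.83%, at an unadjusted p under 0.05).

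Ordered by group mean, MEST, NNAT and MAGEL2 shared a pattern. GD165 control was lowest and GD165 BPA next, then GD100 control and GD100 BPA. The step between the ages was the only one without overlap between neighbors, at 0.94 log2 units for MEST, 0.81 for NNAT and 0.61 for MAGEL2. NDN differed in that the 2 GD100 groups, whose means were within 0.00385 of each other, came in the opposite order. For DLK1, PEG3, PEG10 and PLAGL1 every pair of neighbors in the order overlapped.

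Imprinted genes often lie in clusters under shared control regions, and the genes of the same loci were examined next. At the MEST locus CPA4, a carboxypeptidase, and KLF14, a transcription factor, were also lower at GD165. CPA4 had log2 fold changes of -1.50 in controls (SE 0.218, limma adjusted p of 0.000232) and -1.61 in BPA-exposed fetuses (adjusted p of 0.000386), and KLF14 had -0.81 (SE 0.123) and -0.80. The KLF14 call in BPA-exposed fetuses was lost without scaling (adjusted p of 0.0359), with the compared groups only (0.0143) and with slide as a fixed block (0.0174). COPG2, which overlaps the MEST region and encodes a coatomer subunit, had -0.05 (adjusted p of 0.828) and 0.06. CPA4 and KLF14 were the only ones called of 18 measured neighbors in either comparison, and 2 of 18 is near the 11.5% and 9.68% called over all probes. The median over the 18 was 0.14 in controls and 0.00676 in BPA-exposed fetuses. The 18 include the neighbors of CDKN1C and GRB10, which were themselves not measured.

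BLCAP, the gene within which NNAT lies, had log2 fold changes of -0.19 in controls and -0.25 in BPA-exposed fetuses, which did not pass (limma adjusted p of 0.195 and 0.1). In the Prader-Willi region SNRPN, a splicing protein gene, had 0.15 and 0.22, and UBE3A, a ubiquitin ligase gene, had -0.10 and -0.20, none of which passed. DIO3, the thyroid hormone-inactivating deiodinase of the DLK1 locus, had a log2 fold change of 0.81 in controls (SE 0.222, adjusted p of 0.0163) and 0.72 in BPA-exposed fetuses (adjusted p of 0.0451), without overlap in either. SGCE, which shares a promoter region with PEG10 and encodes a sarcoglycan, had 0.19 and 0.36 (adjusted p of 0.214 and 0.0313), opposite in sign to PEG10. The genes MKRN3, ATP10A and USP29 were not well above background in whole groups and are not compared.

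**Figure D3:**
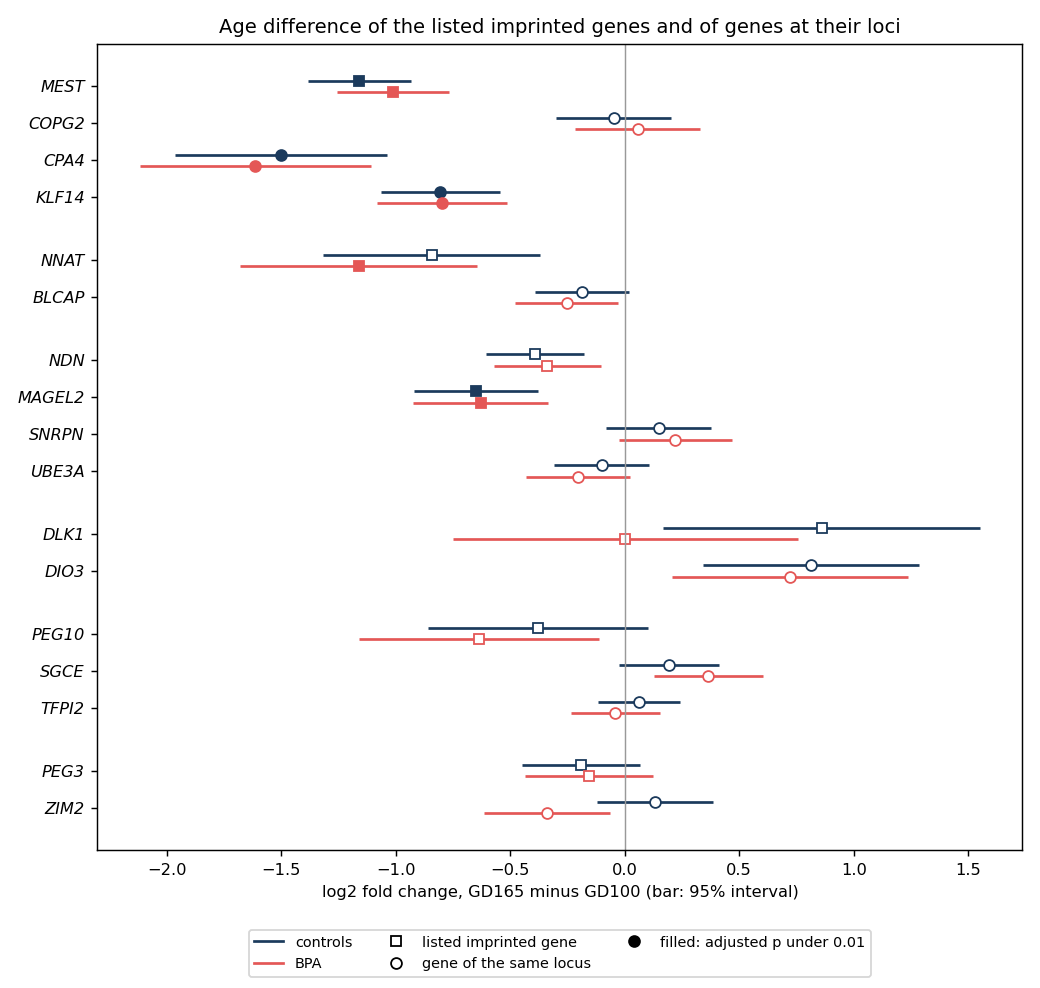
Log2 fold change from GD100 to GD165 on the x axis, with 95% intervals, for 7 listed imprinted genes (squares) and the genes of their loci (circles) that were well above background on all arrays of at least 1 group, without PLAGL1, which had no listed neighbor, and without the 5 neighbors of CDKN1C and GRB10. Filled symbols passed an adjusted p under 0.01; at the MEST locus MEST, CPA4 and KLF14 lay left of 0 in both comparisons while COPG2 lay at -0.05 and 0.06.

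Among 11 measured imprinted genes of other loci 1 was called in each age comparison, which is near the 11.5% and 9.68% called over all probes. It was INPP5F, a phosphoinositide phosphatase, lower by 0.38 log2 units in controls (limma adjusted p of 0.00243) and 0.36 in BPA-exposed fetuses (0.00724). The median over the 11 was 0.06 and 0.19. As the mean of its 2 probes INPP5F had -0.18 (adjusted p of 0.184) and -0.17 (0.233), and its call in BPA-exposed fetuses was lost in each of 8 fits without 1 animal (adjusted p up to 0.0327). Of 11 genes that set or keep imprints, 5 were lower in controls and 3 in BPA-exposed fetuses, beside 5.2% and 4.86% of all probes. UHRF1, which guides maintenance methylation to newly copied DNA, had a log2 fold change of -1.85 in controls (SE 0.240, limma adjusted p of 9.76e-05) and -1.48 in BPA-exposed fetuses (adjusted p of 0.00138). Its call in BPA-exposed fetuses was lost with slide as a fixed block (limma adjusted p of 0.0142) and without GD165 BPA replicate 4 (0.0102). DNMT3A, a de novo DNA methyltransferase, had -0.93 and -0.97 (2.41e-05 and 7.5e-05) by the brighter of its 2 probes, and -0.36 (0.0258) and -0.38 (0.0307), which did not pass, by their mean. TRIM28, a corepressor that protects imprints, had -0.31 and -0.28 (0.00158 and 0.00752), and the second call was lost in 7 of 8 fits without 1 animal. Its call in controls was lost without scaling (limma adjusted p of 0.0271), with the compared groups only (0.0205), with slide as a fixed block (0.0284) and with the replicate block (0.0331). Without scaling TRIM28 in BPA-exposed fetuses had -0.09 (0.567). DNMT1, the maintenance methyltransferase, and DNMT3B passed in controls only with -0.47 and -0.74, and had -0.39 and -0.34 in BPA-exposed fetuses, and the difference between the age effects did not pass for any probe. The DNMT1 call was lost in 5 of 9 fits without 1 animal. The median log2 fold change of the 11 genes was -0.31 in controls and -0.28 in BPA-exposed fetuses, against 0.00460 and -0.05 over all probes.

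Of 17 genes whose proteins are known to interact with products of the listed genes, 5 were lower in controls and 3 in BPA-exposed fetuses, and none was higher, beside 5.2% and 4.86% of all probes called lower. E2F1, a transcription factor bound by necdin, had log2 fold changes of -1.18 (SE 0.175, limma adjusted p of 0.000277) and -1.19 (0.000698). The remaining ones act in the cell cycle with CDKN1C. CCNA2 (cyclin A2) had -1.29 and -1.09 and PCNA (a DNA polymerase clamp) had -0.81 and -0.88, all past the threshold, and CCNE1 (cyclin E1) passed in controls with -0.86. CDK4, outside the rule for naming and added because the count is small, passed in controls with -0.36. With 1 animal left out PCNA lost its call in 7 of 9 fits in controls (adjusted p up to 0.0221) and in 6 of 8 in BPA-exposed fetuses (up to 0.0278), and CDK4 in 7 of 9 (up to 0.0225). The listed partners of DLK1, PEG3, MAGEL2 and GRB10 did not pass in either comparison, and the median of the 17 was -0.16 in controls and -0.27 in BPA-exposed fetuses. None of the 57 genes of these 4 lists was called between BPA and control at either age.

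Markers of proliferation and some markers of other cell types moved with age on the same arrays. All 8 proliferation markers, among them MKI67 and TOP2A, were lower at GD165 in both comparisons. Their log2 summed signal ranged from 16.31 to 16.50 in GD100 controls and 16.28 to 16.46 in GD100 BPA, and from 14.91 to 15.38 in GD165 controls and 15.01 to 15.91 in GD165 BPA. By staining of the Ki-67 protein the study saw no significant decrease at GD165, and it called the impact of its cell cycle expression changes uncertain. Among fetuses of the same group, the deviation of MEST from its group mean had a Pearson's r of -0.00837 with that of the proliferation markers (17 arrays), and the r was 0.49 for NNAT, -0.48 for NDN and -0.07 for MAGEL2. Of all 96 pairs of the 8 genes with 12 marker lists, 10 had an r beyond 0.5 in size. With 96 pairs and 17 arrays some r of that size arise by chance, and none was tested. NNAT had 0.78 with steroidogenic cell markers, 0.54 with smooth muscle, 0.51 with stromal and 0.50 with erythroid markers. Of the 6 steroidogenic cell markers only 2 were well above background on all arrays of each group. The other 4 were so on no array of the GD100 groups and GD165 controls. The score behind the 0.78 averages all 6, so most of its probes lay near background. PEG3 had 0.74 with endothelial, 0.68 with adipocyte and -0.50 with smooth muscle markers. GD100 control replicate 5 was the lowest of all arrays both in PEG3 and in endothelial markers. DLK1 had 0.65 with stromal markers, PLAGL1 0.56 with endothelial markers and PEG10 -0.53 with uterine mesenchyme markers. The largest in size for MEST was -0.42, with nerve and Schwann markers. With age, smooth muscle markers were called higher for 3 of 8 genes in controls and 1 of 8 in BPA-exposed fetuses. Epithelial markers were called higher for 4 and 2 of 6, endothelial markers for 1 and 2 of 7 and leukocyte markers for 2 and 2 of 8. Erythroid markers were called higher for 1 of 6 in both. Uterine mesenchyme markers were called higher for 1 of 8 in both, and lower for 2 and 1. Over all probes 11.5% and 9.68% were called in either direction, and counts of 0 or 1 in lists of 6 to 8 genes are near that. Stromal markers were called lower for 1 of 7 in controls and 0 of 7 in BPA-exposed fetuses. Skeletal muscle markers were called higher for 3 of 8 in controls, and 0 of 8 in BPA-exposed fetuses. Without the pair of arrays on which they stood high, an alternative chosen after seeing the data, 2 imprinted genes were called in controls (MEST at -1.19 and MAGEL2 at -0.59) and 2 in BPA-exposed fetuses (MEST at -1.03 and NNAT at -1.39), where MAGEL2 at -0.69 had an adjusted p of 0.0111. Nerve and Schwann markers were called higher for 1 of 8 in controls and lower for 1 of 8 in BPA-exposed fetuses, and adipocyte markers higher for 1 and 0 of 2. Without GD165 control replicate 6, MEST and MAGEL2 stayed past the threshold in controls, MAGEL2 with an adjusted p of 0.00933. The part of these changes in the levels of the imprinted genes was not tested.

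Within groups the imprinted genes did not vary as 1 block. The deviations from the group mean were compared over the 17 arrays for the 28 pairs of genes, as a description of arrays that share scaling and slides. Pearson's r ran from -0.31 for MEST with DLK1 to 0.61 for PLAGL1 with PEG3, with a median of 0.12. It was above 0.5 for 3 pairs, PLAGL1 with PEG3, MEST with PEG3 (0.58) and MAGEL2 with PLAGL1 (0.54). MAGEL2 and NDN, neighbors on the chromosome, had an r of -0.24. The r of MAGEL2 with PEG3 was 0.72 over the 10 GD100 arrays and -0.18 over the 7 GD165 arrays, and that of PLAGL1 with MEST was 0.00727 and 0.85. GD100 control replicate 5 and GD165 BPA replicate 4 were each lowest of their group in PEG3, PLAGL1, MAGEL2 and MEST. Those arrays also had the lowest shares of spots well above background, at 83.8% and 84.2%. The positive r among these genes rest in part on those arrays, and no r was computed without them.

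**Figure D4:**
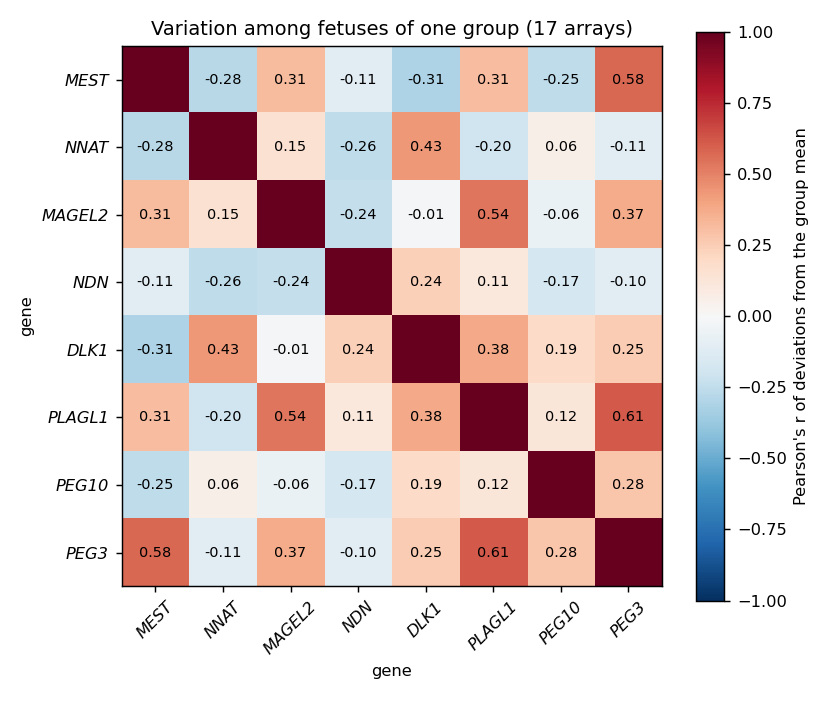
Pearson's r between each pair of the 8 genes, computed on deviations from the group mean over 17 arrays and shown by color and number. PEG3, PLAGL1, MAGEL2 and MEST had positive values with each other, from 0.31 to 0.61, and NDN had values between -0.26 and 0.24 with the others. Each of PEG3, PLAGL1, MAGEL2 and MEST was lowest of its group on GD100 control replicate 5 and on GD165 BPA replicate 4.

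The named probes most like each gene by the same measure were found among 14764 that were well above background on all arrays. They were FZD4 (r = 0.90) and CILP (0.89) for DLK1, PANX2 (0.84) and KLK11 (0.84) for PEG3, and KIF20B (0.87) for PEG10, of which 1 match is given. For MEST they were EMP1 (0.83) and TM9SF4 (0.82), for PLAGL1 both were probes of CDC42EP1 (0.87 and 0.85), and for NNAT they were SCAMP1 (0.88) and IL13RA2 (0.85). The values were lowest for NDN, with JAM2 (0.76) and TRIM41 (0.76), and MAGEL2 had JM4 (0.92) and RPS4X (0.88). With 14764 probes and 17 arrays high values arise by selection, and none of the 8 genes was among these closest matches of another.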

How the data were processed

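Agilent macaque arrays of 1 color carried RNA of 17 uteri. Feature Extraction 9.5 was run by the authors with default settings, and the deposited values are linear intensities, background-subtracted and detrended but not scaled between arrays. The authors' table of all arrays held identical values in 711467 of 711467 comparisons (tolerance 0) and contained no further per-sample values. Here each of 20217 probes was given the mean log2 signal over its 2 spots, without control and outlier spots, and the 75th percentile of each array (5524 to 7319) was subtracted. limma 3.58.1 in R 4.3.3 (lmFit, eBayes) was fitted to 17 arrays in 4 groups without other terms. Tests were two-sided, with Benjamini-Hochberg adjustment over all probes and a threshold of 0.01, the level in the study's methods, whose error-weighted test was not run. The fit was tested on simulated data. Python 3.11.15, numpy 2.4.6, pandas 2.3.3 and matplotlib 3.10.9 were used for the rest. Between array pairs Pearson's r was 0.974 to 0.995, and 0 of 136 were identical. Each array is 1 fetus. Genes were named from probe descriptions (18028 probes), with the brightest probe per gene. Named from the other lists were genes past the threshold, at most 4 rises and 4 falls per list and comparison, neighbors at a locus, and the 2 probes most like each gene, of which 1 is not reported here. The imprinted genes and lists were chosen with earlier results of these data known. Alternatives covered background correction, scaling, a filter that left 17149 probes, outlier spots, the samples fitted, moderation, error weights, slide, replicate number, a threshold of 0.05, averaging of probes and leaving out animals.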

Additional observations from a re-analysis of the deposited data

Results flagged for a closer look

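Of 24 groups of 4 or 5 arrays (8 genes in 3 groups) examined for a single array far from the others, 2 held one, and chance alone gives about 1 in 20. PEG3 was at 12.26 in GD100 control replicate 5, below the other four arrays at 12.70 to 12.80, a gap of 0.812 of the whole range. NNAT was at 14.11 in GD100 BPA replicate 3, above the others at 13.91 to 13.94, a gap of 0.849 of a range of 0.201 log2 units.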

How the results depend on the processing

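MEST, NNAT, NDN and MAGEL2 were lower at GD165 under every alternative run, and MEST kept its call in all of them. The 2 calls in controls became 4 with normexp, with median scaling and at an adjusted p of 0.05, and 1 with the compared groups only, with slide as a fixed block and with the replicate block. The 3 calls in BPA-exposed fetuses became 1 with the compared groups only and with slide as a fixed block. Among the 57 genes of other lists the 13 calls in controls became 23 at 0.05, 8 with the compared groups only and 7 with the replicate block, and the 9 in BPA-exposed fetuses became 20 at 0.05 and 4 with slide as a fixed block. The causes were not tested, except that the compared-groups fit uses fewer arrays. Over all probes the 2328 calls in controls became 4279 at 0.05, 1531 without scaling, 1172 with the compared groups only, 1233 with slide as a fixed block and 958 with the replicate block, and the 1956 in BPA-exposed fetuses became 4255 at 0.05, 1176 with the compared groups only, 512 with slide as a fixed block and 1245 without the pair of arrays high in skeletal muscle markers. For BPA at GD100 the compared-groups fit called 1 probe.

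With 1 animal left out, the calls were 2 to 3 in controls and 1 to 3 in BPA-exposed fetuses (1 without GD100 BPA replicate 3 or GD165 BPA replicate 3), and over all probes 1512 without GD165 control replicate 6 and, in BPA-exposed fetuses, 994 without GD165 BPA replicate 4 and 1181 without replicate 5. Genes without overlap numbered 3 to 4 and 4 to 5 in the age comparisons, 0 to 1 for BPA at GD100 (1 without GD100 BPA replicate 3 or GD100 control replicate 3) and 0 to 3 for BPA at GD165 (3 without GD165 BPA replicate 4). Without that replicate 2 arrays stand against 4, where groups separate more easily. The share of all probes without overlap was not counted with an animal left out, so nothing is read from the 3. The other lists had 10 to 12 and 6 to 9 calls with age.

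Signs changed for 15 uncalled results, whose adjusted p was at least 0.432 in limma. With age these were PLAGL1 in controls (0.057 with slide fixed; -0.20 to 0.071 with an animal left out) and, in BPA-exposed fetuses, PEG3 (0.026 without scaling, 0.051 with slide fixed) and DLK1 (-0.00423 with normexp, -0.042 without the arrays high in skeletal muscle markers, -0.14 to 0.12). For BPA at GD100 they were MAGEL2 (-0.00893 with median scaling, -0.018 without scaling, -0.057 to 0.074) and NDN (0.018 with slide fixed, -0.063 to 0.046). For BPA at GD165 they were NDN (-0.11 with slide fixed, -0.016 to 0.13), DLK1 (0.039 with the replicate block), PEG10 (-0.00590 to 0.34) and, without the arrays high in skeletal muscle markers, PLAGL1 (-0.057; -0.061 to 0.35), NNAT (-0.37; -0.20 to 0.38) and MAGEL2 (-0.082; -0.021 to 0.12). For the interaction they were MAGEL2 (-0.020 with normexp, -0.056 with slide fixed, -0.00521 with the replicate block, -0.10 without those arrays, -0.043 to 0.10), NDN (-0.13 with slide fixed, -0.012 to 0.14), PEG3 (-0.040 to 0.16) and NNAT (-0.55 to 0.029).

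Equal replicate numbers mark separate animals, and the deviations of same-numbered fetuses correlated at -0.17 to 0.16, so they did not pair the samples. The replicate block moved the count of imprinted genes called to 1 in controls and 2 in BPA-exposed fetuses. Without scaling the median of all probes moved to 0.134 in the age comparison of BPA-exposed fetuses and to 0.135 for BPA at GD165. With 3 GD165 BPA arrays, leaving 1 out leaves 2. The compared-groups fit of the interaction uses the same 4 groups and was not run apart.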
